A study of Mus musculus with 2 samples.

Results

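The 9 long non-coding RNAs described here are named transcripts classed as non-coding. Malat1, Neat1, Tug1 and Gas5 are expressed by most cell types, while Rmst, Miat, Sox2ot, Dlx6os1 and Snhg11 are known mainly from neural tissue. All 9 were chosen by symbol, as every non-control probe whose gene name in the files is one of these 9. Of the 9, 8 were on the array, with 22 of its 56589 probes, and Malat1 was absent from it. The array names 32628 genes in all. RNA came from 46C cells, a mouse embryonic stem cell line with GFP inserted at Sox1, at day 5 of neural differentiation in floating aggregates fed with knockout serum replacement. The KO-Linc1548 group is 46C cells that lack Linc1548, itself a long intergenic RNA, and the WT group is 46C cells of wild type genotype under the same protocol. Each group has 1 one-colour (Cy3) array, so no difference has a replicate check, none was tested, and only values, a limit of 2-fold and error within an array are given. The labels do not say how the knockout was made or how many clones it stands for.

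Long non-coding RNAs act in several ways. Neat1 is the scaffold of paraspeckles, nuclear bodies that hold RNA-binding proteins, and Malat1 and Miat also stay in the nucleus, Malat1 in splicing speckles. Rmst binds SOX2 at neurogenic genes and the Sox2 gene lies within an intron of Sox2ot, while Dlx6os1 (Evf2) runs antisense to Dlx6 and is made in the ventral forebrain. Gas5 hosts small nucleolar RNAs and binds the glucocorticoid receptor, and Tug1 was named as a taurine-responsive gene of the retina.

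Each RNA is read through probes of 60 bases, and several statements below turn on how the probes of an RNA differ, so the sequences are shown for RNAs whose probes disagree, overlap or carry a difference. Capitals mark the longest stretch, of at least 12 bases, that a probe shares with another probe of the same RNA, and a probe with no capitals shares none. Names give the position, in the transcript the probe was designed on, where the probe starts. Miat probes come from chromosome 5, minus strand. The probe at base 8640 lies in an unbroken stretch (mm9, chr5:112642308-112642367), while those at 666 and 169 are split over 2393 and 6240 bases of genome, as for probes that join separate stretches.
Miat base 8640: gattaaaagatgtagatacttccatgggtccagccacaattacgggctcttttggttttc
Miat base 666: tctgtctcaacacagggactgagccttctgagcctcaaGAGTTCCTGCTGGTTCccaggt
Miat base 169: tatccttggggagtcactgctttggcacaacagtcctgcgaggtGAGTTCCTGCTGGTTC

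The 3 Sox2ot probes lie on chromosome 3, plus strand (mm9), at chr3:34537493-34537552, chr3:34576768-34576827 and chr3:34579564-34579623. The Sox2 probe lies between the first and the second of them.
Sox2ot base 469: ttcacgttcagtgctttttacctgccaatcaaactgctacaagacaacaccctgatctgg
Sox2ot base 2822: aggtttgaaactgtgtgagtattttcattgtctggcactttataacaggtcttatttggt
Sox2ot base 3277: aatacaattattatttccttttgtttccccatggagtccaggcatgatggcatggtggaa

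The Dlx6os1 probes lie on chromosome 6, minus strand (mm9), at chr6:6772706-6772765, chr6:6771400-6771456 and chr6:6770192-6770249. The files place the second over 57 and the third over 58 bases of genome, fewer than the 60 bases of each probe. The probe at base 4386 was designed on a different transcript from the other two and has the highest GC content of the 3 (55.0%, against 40.0% and 41.7%).
Dlx6os1 base 2027: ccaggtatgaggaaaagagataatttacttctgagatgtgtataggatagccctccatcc
Dlx6os1 base 3336: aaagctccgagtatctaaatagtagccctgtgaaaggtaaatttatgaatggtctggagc
Dlx6os1 base 4386: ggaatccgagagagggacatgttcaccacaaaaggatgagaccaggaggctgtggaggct

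The Neat1 probes lie on chromosome 19, minus strand (mm9), at chr19:5844378-5844437 and chr19:5844123-5844182. A further probe, from the array's set of intergenic RNA loci, carries the name NEAT1 in capitals and lies 1410 bases away on the same strand (chr19:5842654-5842713). It is not among the 22 because its name differs from the symbol.
Neat1 base 1045: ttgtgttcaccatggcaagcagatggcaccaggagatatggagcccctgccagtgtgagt
Neat1 base 1298: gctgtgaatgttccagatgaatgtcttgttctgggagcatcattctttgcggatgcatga
NEAT1: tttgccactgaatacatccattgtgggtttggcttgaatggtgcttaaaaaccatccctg

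Among Rmst probes, those at bases 2639 and 1877 (each in its own transcript) share 36 bases on chromosome 10, minus strand (mm9, chr10:91624893-91624952 and chr10:91624869-91624928).
Rmst base 2639: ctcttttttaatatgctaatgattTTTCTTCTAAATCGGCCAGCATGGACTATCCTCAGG
Rmst base 1877: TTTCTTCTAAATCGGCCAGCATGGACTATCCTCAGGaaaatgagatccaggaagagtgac

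Of the 22 probes, 0 have a stretch of 20 or more bases, on either strand, in common with a differently named probe. Transcripts outside the probe set were not compared.

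On the KO-Linc1548 array 33131 probes (58.5%) and on the WT array 34753 probes (61.4%) lay well above background, and 0 probes were saturated on either. Signals below are scaled to a common 75th percentile, and a gene's value is the median log2 difference, KO-Linc1548 minus WT, of its probes well above background on both arrays. Over the 18622 genes so measured, 8.82% were lower by 2-fold or more and 11.5% were higher by that much (20.3% either way), and the median was 0.10. Probes printed in several spots differed between spots by an SD of 0.070 on the KO-Linc1548 array and 0.065 on the WT array (log2, 298 probes). No probe names Linc1548, so the labels could not be checked against the RNA that was targeted. A single slide and scan held both arrays, at different positions, so position and culture cannot be told apart from genotype.

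Of the 8 RNAs on the array, 6 were measured on both arrays. Miat and Sox2ot were at least 2-fold lower in KO-Linc1548 cells (2 of 6, beside 8.82% of all genes), and Neat1 was at least 2-fold higher (1 of 6, beside 11.5%), which makes 3 of 6 either way beside 20.3%. Tug1, Gas5 and Snhg11 were within 2-fold. Rmst and Dlx6os1 had probes above background on a single array. As bulk arrays, these cannot tell fewer cells of a type from less RNA per cell.

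**Figure D1:**
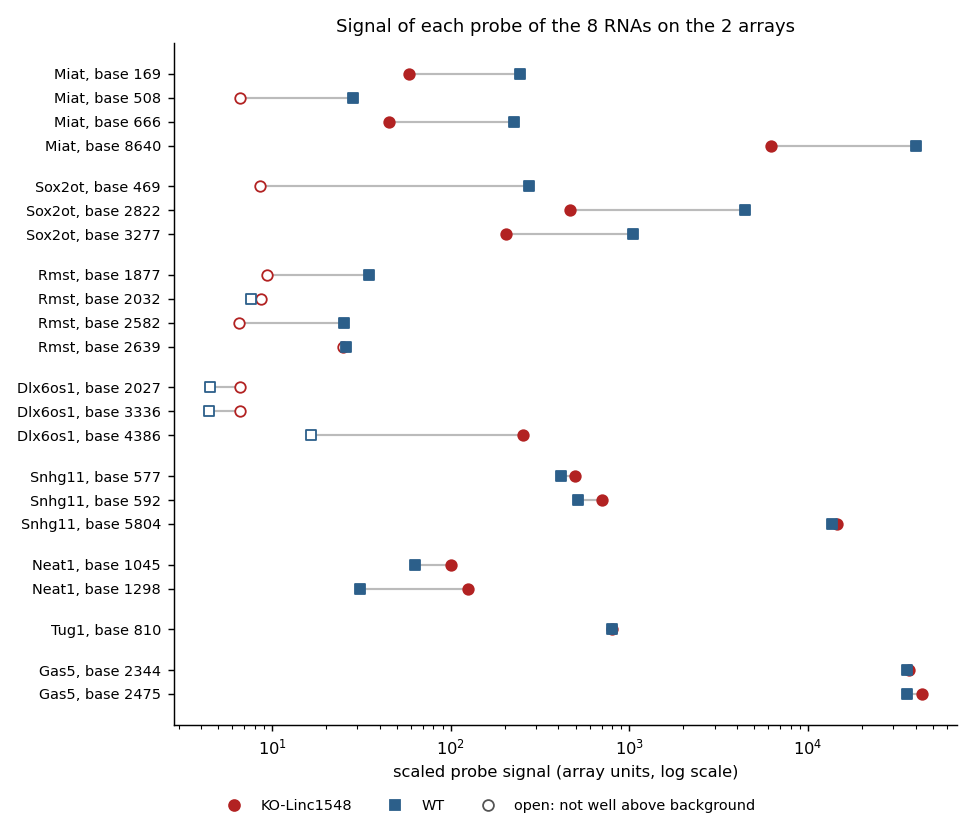
Scaled signal (array units, log axis) of each of the 22 probes on the KO-Linc1548 array (red circles) and the WT array (blue squares); labels give the RNA and the base at which the probe starts, and open symbols are not well above background. All 4 Miat and all 3 Sox2ot probes read lower on the KO-Linc1548 array, and 1 Dlx6os1 probe read 254 there against 16.6 on the WT array.

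Miat, also called Gomafu, is a nuclear RNA of neurons and retina that binds splicing factors such as QKI and SF1. It is also known from embryonic stem cells. Its probe at base 8640 read 6217 on the KO-Linc1548 array, against 40291 on the WT array, a log2 difference of −2.70 with a software error of 0.20 (6.48-fold lower). The split probes went the same way. At base 666 the signal was 45.0 on the KO-Linc1548 array and 225 on the WT array (−2.32). At base 169 it was 58.6 on the KO-Linc1548 array and 245 on the WT array (−2.07). The remaining probe, at base 508, read 6.62 on the KO-Linc1548 array, not well above background there, against 28.3 on the WT array. Over the 3 measured probes the value of Miat was −2.32 (4.99-fold lower), and 303 of 18622 genes lay below it. With normexp background correction, which adds an offset of 50 before the logarithm, the value was −1.17, whereas the probe at base 8640 gave −2.75.

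Sox2ot, a long transcript on the strand of Sox2, had the lowest value of the 6. Its probe at base 2822 read 467 on the KO-Linc1548 array and 4443 on the WT array (−3.25, 9.52-fold lower, software error 0.21). At base 3277 the signal was 204 on the KO-Linc1548 array and 1041 on the WT array (−2.35). These give a value of −2.80 (6.98-fold lower), with 153 genes below it. The 5′ probe at base 469 read 8.55 on the KO-Linc1548 array, within background, against 273 on the WT array, so it was at least 8.95-fold lower in KO-Linc1548 cells.

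Sox2 itself, the transcription factor of pluripotent and neural progenitor cells, was within 2-fold. Its probe, 13708 bases from the nearest Sox2ot probe and on the same strand, read 15908 on the KO-Linc1548 array and 14336 on the WT array (0.15). Between the first Sox2ot probe and Sox2, a probe named after the cDNA AK043872 lies 6802 bases from a Sox2ot probe on the same strand. It read 20.0 on the KO-Linc1548 array, not well above background, against 187 on the WT array, at least 6.14-fold lower. On the plot of neighbouring probes, the probes of Sox2ot itself were thus low in KO-Linc1548 cells on both sides of a Sox2 probe within 2-fold. Of the 6 other probes within 50 kb, which include Sox2 and AK043872, 4 were at background on both arrays.

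**Figure D2:**
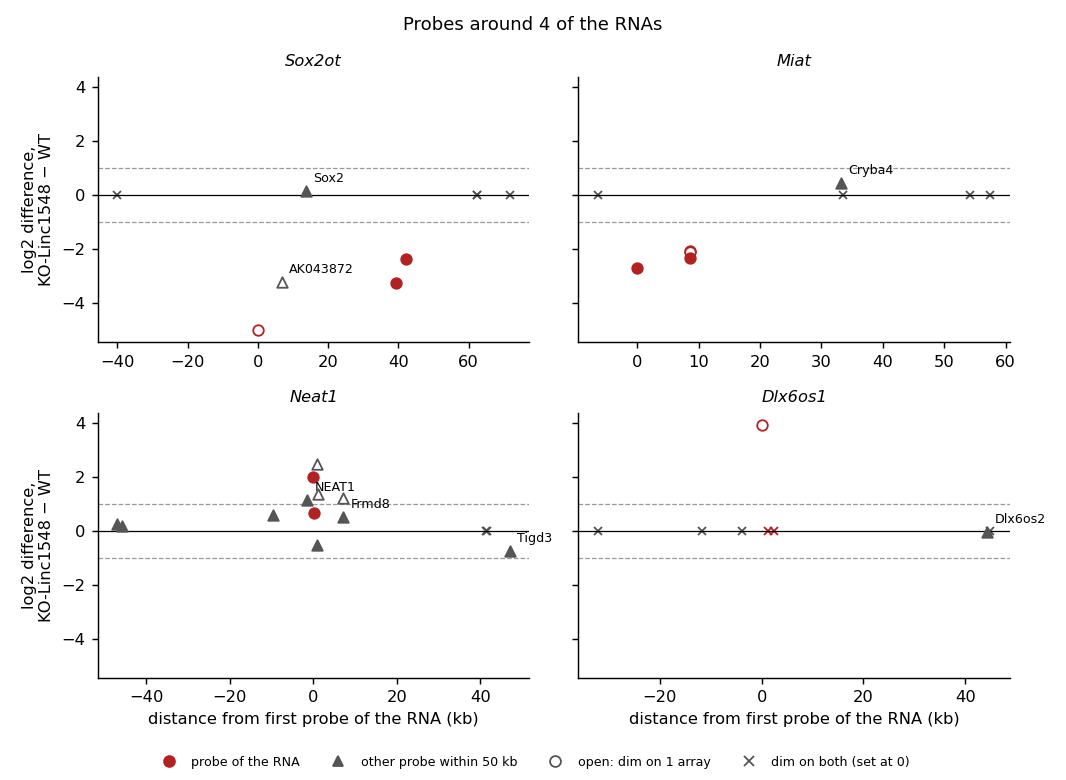
Log2 difference (KO-Linc1548 minus WT) of each probe (red circles) of Sox2ot, Miat, Neat1 and Dlx6os1 and of the other probes within 50 kb of one of them (grey triangles), by distance in kb from the leftmost probe of the RNA. Open symbols were well above background on 1 array, crosses on neither and are drawn at 0, and dashed lines mark 2-fold. Sox2, at 0.15, sits between Sox2ot probes that all lie below −2.

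Snhg11, a small nucleolar RNA host gene enriched in brain whose probes carry a RefSeq record of the protein-coding type, did not follow Miat and Sox2ot. Its probe at base 5804 read 14439 on the KO-Linc1548 array and 13659 on the WT array (0.08). The probes at bases 577 and 592, which share 45 of 60 bases, read 497 and 705 on the KO-Linc1548 array, against 413 and 518 on the WT array (0.27 and 0.44). All 3 were within 2-fold. The value of 0.27 has no settled sign, since it was −0.12 when the arrays were centred on spike-in controls.

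Rmst, which is made in neural progenitors and repressed by REST, was near the detection limit. Its 4 probes read 6.51 to 24.9 on the KO-Linc1548 array, all within background, and 7.66 to 35.1 on the WT array, 3 of them well above background. The lowest signal that counted as well above background was 30.5 on the KO-Linc1548 array and 21.3 on the WT array, so the WT signals were close to it. Its probe at base 1877 was at least 1.15-fold lower in KO-Linc1548 cells, and the other two that were above background in WT give no bound above 1. The overlapping probes shown above, at bases 1877 and 2639, were both within background on the KO-Linc1548 array, so their differences cannot be compared.

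Probes of 2 other names near Rmst were lower in KO-Linc1548 cells. Gm3515, a symbol that the RefSeq table lists as a synonym of Rmst, had a probe on the same strand 10044 bases from the nearest Rmst probe. It read 17.1 on the KO-Linc1548 array, within background, against 63.6 on the WT array, at least 2.09-fold lower. The probe TC1605611, 10655 bases away on the same strand, read 233 on the KO-Linc1548 array and 608 on the WT array (−1.38). It was the sole probe at least 2-fold lower among the 29 measured ones within 50 kb of any of the 8 RNAs, beside 8.82% of all genes. The 1 probe there that was at least 2-fold higher, beside 11.5% of all genes, was the probe named NEAT1.

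Dlx6os1 had 1 probe that was higher in KO-Linc1548 cells and 2 that were at background on both arrays. At base 4386 the signal was 254 on the KO-Linc1548 array, against 16.6 on the WT array, where it was not well above background, so it was at least 11.9-fold higher in KO-Linc1548 cells. The probes at bases 2027 and 3336 read 6.60 and 6.59 on the KO-Linc1548 array, and 4.47 and 4.45 on the WT array, all at background. So the 3 probes do not agree on whether this RNA was present.

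The genes beside Dlx6os1 were also dim. Dlx5 and Dlx6, homeobox factors of ventral forebrain neurons, were at background on both arrays, Dlx6 at 6.86 on the KO-Linc1548 array and 4.77 on the WT array. Dlx6os2, a second antisense RNA of Dlx6, read 58.6 on the KO-Linc1548 array and 59.9 on the WT array (−0.03). The other 3 probes within 50 kb on the same strand were at background on both arrays. No nearby probe therefore carried the difference of the probe at base 4386.

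Neat1 was the one ubiquitous RNA past the limit, and its size varied by probe. At base 1045 the signal was 101 on the KO-Linc1548 array and 63.5 on the WT array (0.67). At base 1298 it was 126 on the KO-Linc1548 array and 31.1 on the WT array (2.01). Both were higher in KO-Linc1548 cells, and their median of 1.34 (2.53-fold) had 1448 genes above it. The NEAT1 probe read 2698 on the KO-Linc1548 array and 1221 on the WT array (1.14, 2.21-fold). Among 1933 measured probes of intergenic RNA loci, 12.3% were higher by 2-fold or more and 5.69% lower (18% either way). With spike-in centring the value of Neat1 was 0.95 and that of the NEAT1 probe 0.75, and with normexp they were 0.80 and 1.09. The direction held in both settings. The 2-fold call of Neat1 failed in both, and that of the NEAT1 probe failed with spike-in centring but held with normexp.

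On the opposite strand beside Neat1, probes of intergenic loci went different ways. One locus has 2 probes here. At 615 bases from a Neat1 probe the signal was 675 on the KO-Linc1548 array and 968 on the WT array (−0.52). At 528 bases it was 59.3 on the KO-Linc1548 array and 10.5 on the WT array, within background there, at least 2.78-fold higher. The other locus, 854 bases away, was at least 1.66-fold higher and Frmd8os at least 1.54-fold higher, both within background on the WT array. Frmd8 (0.50) and Tigd3 (−0.76), protein-coding neighbours on the strand of Neat1, were within 2-fold. Malat1, a neighbour of Neat1 on chromosome 19, has no probe by name, accession or description. An intergenic locus probe on the strand of Neat1 and 45808 bases from it read 11441 on the KO-Linc1548 array and 10136 on the WT array (0.17). Whether it reads Malat1 was not settled, since no mm9 annotation was used.

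Gas5 and Tug1 stayed within 2-fold in every setting run. The Gas5 probes at bases 2475 and 2344 read 43286 and 36900 on the KO-Linc1548 array, against 35922 and 35610 on the WT array (0.27 and 0.05). Their value of 0.16 was −0.23 with spike-in centring, −0.15 with quantile and −0.09 with loess normalization, so it has no settled sign. An intergenic locus probe on the same strand, inside the genome span of the split Gas5 probe at base 2344, read 1237 on the KO-Linc1548 array and 741 on the WT array (0.74, 1.67-fold higher), also within 2-fold. Tug1 read 800 on the KO-Linc1548 array and 795 on the WT array (0.01, or −0.38 with spike-in centring). A probe named TUG1 in capitals, 6348 bases away on the same strand, read 2026 on the KO-Linc1548 array and 2997 on the WT array (−0.57). These 2 probes thus differed in log2 difference by more than the software error of 0.20 on each.

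Values of named neighbours follow, again beside the 20.3% of all genes past 2-fold. Around Gas5 the probes of Zbtb37 (0.16 and −0.03) and Cenpl (0.09 and −0.14) were within 2-fold, while those of Serpinc1 disagreed. One Serpinc1 probe was at least 2.10-fold higher and the other at least 2.41-fold lower, each measured on a single array. Around Tug1, Morc2a (0.45) and Gm10216 (0.68) were within 2-fold, as were Ralgapb (0.54) and Lbp (−0.44) around Snhg11 and the measured Cryba4 probe (0.45) near Miat.

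**Figure D3:**
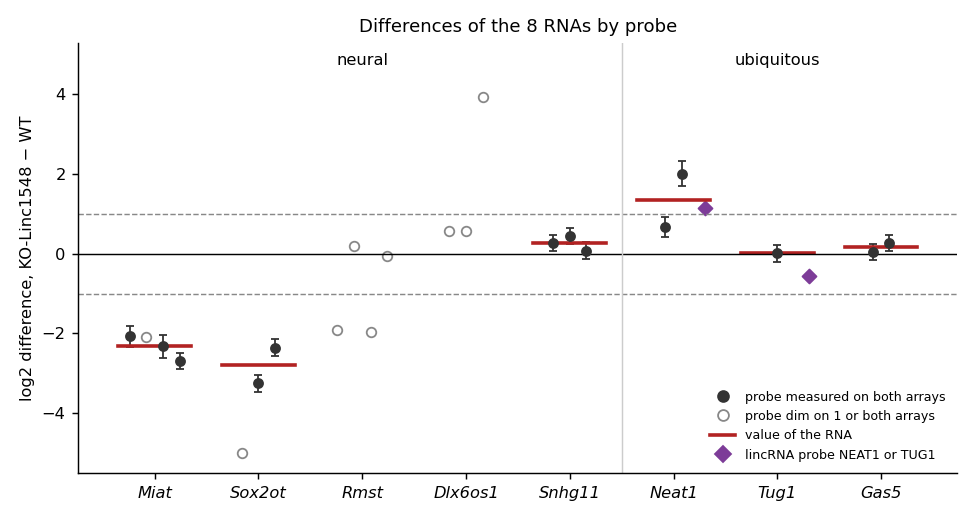
Log2 difference (KO-Linc1548 minus WT) of each probe of the 8 RNAs, with the scanner software's error as bars for probes measured on both arrays, open symbols for the rest, red lines for the value of each RNA and dashed lines at 2-fold. Miat (−2.32) and Sox2ot (−2.80) lie below the limit, Snhg11, Tug1 and Gas5 within it, and Neat1 (1.34) above it.

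The medians of the neural and the ubiquitous RNAs differed, and 2 of the neural RNAs set that difference. The 3 measured neural RNAs had a median of −2.32 and ran from −2.80 to 0.27. Rmst and Dlx6os1, above background on a single array, are not in this range. The Dlx6os1 probe at base 4386 was at least 11.9-fold higher in KO-Linc1548 cells. The Rmst probe at base 1877 was at least 1.15-fold lower there. The 3 measured ubiquitous RNAs had a median of 0.16 and ran from 0.01 to 1.34. The classes overlapped, since Snhg11 lay above both Gas5 and Tug1. The difference of medians was −2.48, and without Miat and Sox2ot, which leaves Snhg11 alone in the neural class, it was 0.11.

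**Figure D4:**
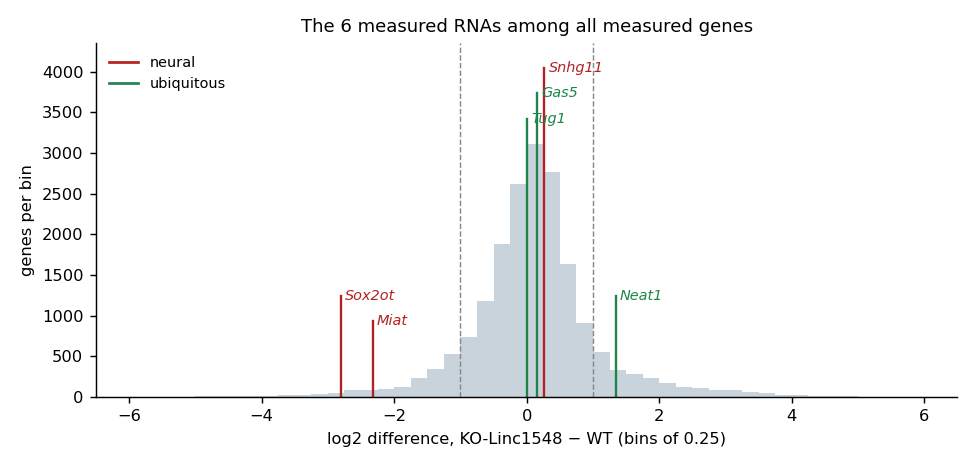
Number of the 18622 measured genes per bin of 0.25 in log2 difference (KO-Linc1548 minus WT), with the 6 measured RNAs marked (neural in red, ubiquitous in green; line heights carry no value). Sox2ot and Miat stand in the lower tail, and Tug1, Gas5 and Snhg11 near the median of 0.10.

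Signal along transcripts also differed between the arrays. In 3473 transcripts with probes 500 or more bases apart, the difference of the last probe lay below that of the first by a median of −0.17 (interquartile range −0.45 to 0.06). For Miat the last probe lay at −0.38 relative to the first, and for Snhg11 at −0.19. The part of this in the results was not tested.

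Other named long non-coding RNAs were set beside the 8, from lists chosen with earlier results of these data known. Of 10 measured RNAs at or near neural development genes, 5 were lower by 2-fold or more (Pantr1, Pantr2, Six3os1, Mir124a-1hg and C130071C03Rik) and 2 higher (Vax2os and Otx2os1), and the median was −1.38. Pantr1, which lies beside the neural factor gene Pou3f3, was the lowest (−3.93), reading 1062 on the KO-Linc1548 array and 16162 on the WT array. Vax2os, opposite the eye gene Vax2, was the highest (3.77), from 392 on the KO-Linc1548 array and 28.8 on the WT array, the last close to background. Of 11 widely expressed RNAs, 1 was lower by 2-fold or more (Jpx, an X-linked RNA, −1.10). Another 2 were higher by that much, Pvt1, a neighbour of Myc (1.71), and Rpph1, the RNA of RNase P (1.31), and the median was 0.31. As a background, 9.94% of 795 measured genes with a RefSeq non-coding accession were lower by 2-fold or more and 12.3% higher (22.3% either way), and the median was 0.14.

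RNAs named for embryonic stem cells stood at the other end. Of 10 measured, 8 were higher by 2-fold or more in KO-Linc1548 cells, 0 were lower by that much, and Platr25 (0.28) and Platr30 (0.81) were within 2-fold. The median was 2.95 and the highest was Platr5 (4.06). Platr5 read 1664 on the KO-Linc1548 array and 100 on the WT array. Of 13 other snoRNA host RNAs, the class of Gas5, 11 were within 2-fold and 2 higher, Snhg4 (1.23) and Snhg14 (1.06), and the median was 0.42. Snhg18 (−0.52) and Snhg10 (−0.26) were the lowest.

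The mRNAs of protein partners of these RNAs were read beside the 20.3% of all genes that were past 2-fold either way. Protein itself was not measured. The mRNAs of all 12 paraspeckle proteins, which sit on Neat1, were within 2-fold, from Nono (−0.60) to Dazap1 (0.54). Their median was 0.05. The mRNAs of all 12 splicing proteins of speckles and partners of Miat were within 2-fold, from Qk (−0.84) to Srsf7 (0.48). Their median was −0.06. Qk, which encodes the Miat-binding protein QKI, crossed the limit on its brightest probe, at 2576 on the KO-Linc1548 array and 10217 on the WT array. Of 8 measured transcription partners and targets, 6 were within 2-fold and 2 past it, a share near that of all genes. Nr3c1, the glucocorticoid receptor that Gas5 binds, was the highest (1.46).

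**Figure D5:**
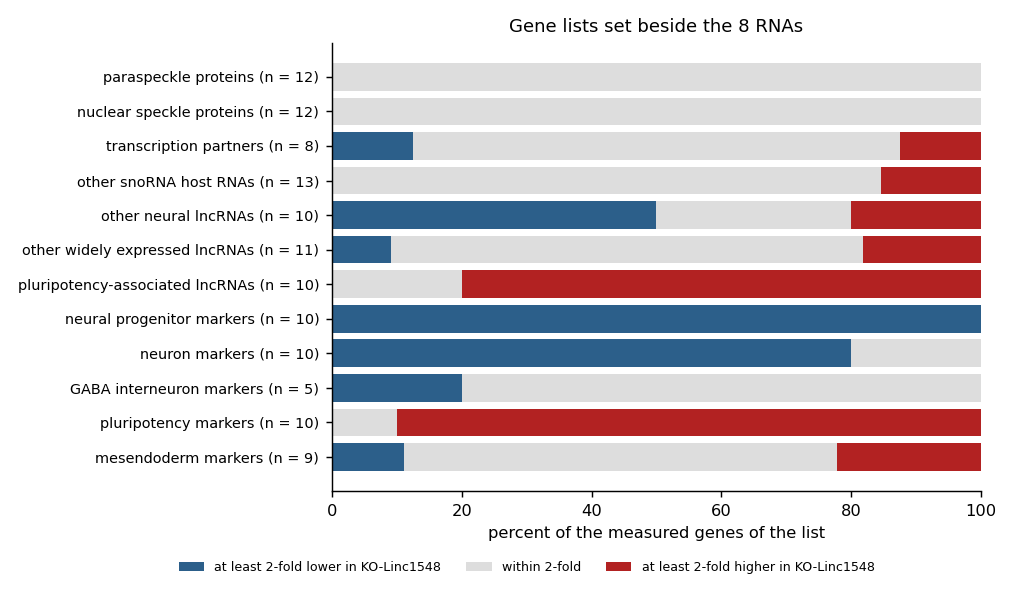
Percent of the measured genes of each list (n beside its name) that were at least 2-fold lower (blue), within 2-fold (grey) or at least 2-fold higher (red) on the KO-Linc1548 array relative to the WT array. All 24 paraspeckle and speckle genes are within 2-fold, and 10 of 10 neural progenitor markers are lower.

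Markers of neural cells were low in KO-Linc1548 cells alongside Miat and Sox2ot and those of pluripotent cells high, and their part in these differences was not tested. The marker counts stand beside 8.82% of all measured genes lower by 2-fold or more and 11.5% higher. Of 10 neural progenitor markers, 10 were at least 2-fold lower in KO-Linc1548 cells, from Hes5 (−4.78) to Msi1 (−1.57, with probes from −1.70 to 0.09). Of 10 neuron markers, 8 were lower by that much, the lowest being Myt1 (−4.88), and Stmn2 (0.21) and Snap25 (−0.15) were within 2-fold. Of 10 pluripotency markers, 9 were at least 2-fold higher, the highest being Tdgf1 (4.54, with probes from 2.21 to 4.81). Nanog was the lowest of the 10 and within 2-fold (0.66, with probes at −1.63 and 2.95). For ventral forebrain, where Dlx6os1 is known, 5 of 8 interneuron markers were measured, and the highest was Gad1 (0.99), within 2-fold. Of 9 measured mesoderm and endoderm markers, 1 was lower by 2-fold or more (Foxa2, −1.88) and 2 higher, Eomes (3.22) and Afp (1.39). Both arrays thus held markers of neural and of pluripotent cells above background.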

How the data were processed

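Total RNA of each culture was labelled with Cy3 and hybridised to 1 array, per the labels. Per the file headers, the deposited spot intensity values come from Agilent Feature Extraction (version 10.7.1.1). The processed intensity is background-subtracted and detrended within the array per the same headers, with surrogates for very low signals and no scaling between arrays. The software's error of the intensity comes from the same files.

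Groups follow the genotype labels. Outlier spots were left out (155 on the KO-Linc1548 array, 173 on the WT array), spots of a probe averaged as log2, and each array centred on its 75th percentile, 652 for KO-Linc1548 and 864 for WT. A probe counted as measured where at least 0.5 of its spots were well above background on both arrays and it was not saturated (31536 probes). A bound sets the bright signal against the higher of the dim probe's own signal and the lowest signal well above background on that array. The software error of a difference combines both arrays and covers neither cultures nor amplification. The number of arrays limits the precision.

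Names are those of the files; RefSeq (GRCm38.p6) served for synonyms. Positions are on mm9, per the file headers. Named are all members and their probes, genes within 50 kb measured on either array, Sox2, Dlx5, Dlx6, and the highest and lowest gene of each list (2 each over 12 genes). Other list genes, named to complete a count of 5 or fewer, and intergenic loci singled out near Neat1 and Gas5 were chosen after their values were seen. A few named by this rule are left out of the text but stay in the counts. Members and lists were chosen with earlier results of these data known. Steps were tested on simulated data. Alternatives used limma 3.58.1 in R 4.3.3; the rest used Python 3.11.15 with pandas 2.3.3.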

Additional observations from a re-analysis of the deposited data

How the results depend on the processing

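With 1 array per group no replicate could be left out. No paired analysis was possible because each group has a single array. Sox2ot and Miat were at least 2-fold lower in all 12 settings, from −3.25 to −2.54 and from −2.71 to −1.17. Tug1, Gas5 and Snhg11 were within 2-fold in all 12. The count of RNAs at least 2-fold higher was 1 (Neat1) and became 0 with normexp background correction, spike-in centring, the stricter filter on dim probes (which leaves Neat1 unmeasured) and the brightest probe of a gene (Neat1 0.67). The neural minus ubiquitous median was −2.48. It was −1.29 with normexp, −2.78 with the stricter filter and −2.97 with the brightest probe, and turned to 0.11 without Miat and Sox2ot. With no filter on dim probes, which brings in Rmst at −0.98 and Dlx6os1 at 0.56, it was −1.14. The 0.56 is the value of a probe at background on both arrays. Probes at background had a median signal of 6.84 on the KO-Linc1548 array and 4.67 on the WT array, so such probes read higher on the former. Adding the NEAT1 and TUG1 probes, an alternative chosen after seeing the data, left Neat1 at least 2-fold higher and put Tug1 at −0.28.

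Spike-in centring shifted every difference by −0.39 and changed the split of all genes to 1386 at least 2-fold higher and 2978 lower, against 2141 and 1643. Counts of all genes lower were 1048 with normexp and 2579 with no filter, and counts higher were 3998 with no filter and 1398 with the stricter filter. Of 264 list counts recomputed, 241 stayed within 1.5 times. The 23 others were as follows. Spike-in centring gave 1 speckle gene lower (against 0), 0 snoRNA hosts higher (against 2), 3 widely expressed RNAs lower and 1 higher (against 1 and 2), 2 interneuron markers lower (against 1), and 2 mesoderm and endoderm markers lower and 1 higher (against 1 and 2). The stricter filter gave 2 neural RNAs lower and 0 higher (against 5 and 2), 5 stem cell RNAs higher (against 8), 5 neuron markers lower (against 8) and 0 interneuron markers lower (against 1). With no filter there were 1 neural RNA higher, 13 stem cell RNAs higher and 0 widely expressed RNAs lower, the last also with normexp. The brightest probe gave 2 widely expressed RNAs lower, and both it and the mean of probes gave 1 speckle gene lower; the mean also gave 2 transcription partners higher (against 1). RefSeq names gave 4 widely expressed RNAs and 1 snoRNA host higher, and loess 1 snoRNA host higher. Brightness over background limits Rmst, Dlx6os1 and the Neat1 probes.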
